A study of Saccharomyces cerevisiae with 24 samples.

Results

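M1 is one of 8 Saccharomyces cerevisiae strains adapted to liquors of broken-down plant biomass, and it was set here against PR-438, PR-338 and PR-164, the other 3 adapted strains that were hybridised with the same DsRed reference. The comparison holds 12 of the 24 arrays of the study, 3 of M1 and 9 of the PR mutants. Each array carried RNA of an adapted strain in one dye and RNA of the reference strain, named after the red fluorescent protein DsRed, in the other. One array of each strain lay on each of 3 slides, with the strain in Cy5 on slides 1 and 3 and in Cy3 on slide 2. Members were chosen by this label alone, as the 12 arrays with a DsRed channel, and the gene measure was the log2 ratio of M1 minus the mean log2 ratio of the 3 PR arrays of the same slide. Because all 4 strains share the reference and the slide, whatever the reference, the dye and the slide add equally to the 4 arrays cancels in that difference.

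Per the labels all cultures were liquid, with growth in YNB minimal medium that had no glucose and in biomass hydrolysate at 1 g/mL. Whether these were the same medium is not stated. From each, 5 µg of cDNA was labelled. The labels name no mating type, ploidy, parent or clone for M1, for a PR mutant or for DsRed, so the strains are known only by these names. The series description calls the 3 slides biological replicas, and each strain kept the same place on all slides, so place and strain cannot be told apart. The M1 arrays enter every comparison of M1 below, so the 3 comparisons with single PR mutants share them.

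Yeast cells of mating type a express a-factor and the receptor for alpha-factor, while alpha cells express alpha-factor and the receptor for a-factor, under the control of the MAT locus. Fast growth in yeast goes with high expression of ribosomal proteins and of the large group of factors that build ribosomes, and slow or starved growth goes with reserve carbohydrates, autophagy and enzymes for poor carbon sources. Hydrolysates of plant biomass supply sugars together with acids, furans and phenols that slow growth, and these gene groups are therefore commonly examined in adapted strains.

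Values were centred on each array's median, so that 0 means the same ratio as the median gene. The 4073 named genes, each the mean of at least 2 probes, were tested, and 4048 of them had a value on all 12 arrays. Between 2.14% and 6.39% of an array's spots had no usable ratio. The ratio's direction on slide 2 is not stated in the labels. It was read as mutant over reference, and whether that reading holds was not tested. The median ratio before centring was 2.97 to 4.82 on the 4 arrays of slide 2, against 0.306 to 0.601 on slide 1 and 0.572 to 1.41 on slide 3. The a-cell genes of M1 had the same sign on slides 2 and 3 under this reading. Read so, the gene AAD3 had -2.46, -1.71 and -3.48 on slides 1, 2 and 3 in PR-338, and -2.19, -1.54 and -1.28 in PR-164. The median of the cytosolic ribosomal protein genes in M1 was 1.43, -2.72 and 0.17. Spearman correlations across genes were taken between arrays of the same strain. Between slides 1 and 2 they were -0.3 in M1, 0.001 in PR-438, -0.154 in PR-338 and -0.418 in PR-164. Between slides 2 and 3 they were -0.188 in M1, 0.277 in PR-438, -0.022 in PR-338 and -0.24 in PR-164. The opposite reading, called the turned reading below, changes the sign of every value of slide 2. A gene said below to lie above or below all PR arrays on every slide then lies on the other side of them on slide 2. Counts and medians of the main gene lists are given under both readings. The correlation between paired probes of a gene ran from 0.29 on PR-338 replicate 3 to 0.927 on M1 replicate 2, with a median of 0.739 over the 12 arrays. It was also low on PR-338 replicate 1 (0.348), PR-438 replicate 3 (0.429) and M1 replicate 3 (0.538). Precision is limited by the number of arrays. The median standard error of M1 minus PR was 0.224 and the median size of the difference was 0.212, so a typical gene's difference was no larger than its error.

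One M1 array stood apart from the other M1 arrays in the genes that mark mating type. The median log2 ratio of the 7 measured a-cell-specific genes was -0.24, 3.78 and 4.29 on M1 replicates 1, 2 and 3, and on the 22 arrays of the study other than M1 replicates 2 and 3 it lay between -0.515 and 0.2. M1 replicate 1 thus lay inside the range of the other strains and M1 replicates 2 and 3 far above it. Over all genes M1 replicate 1 ranked its ratios most like PR-164 replicate 1, with a Spearman correlation of 0.78 across genes, against -0.3 with M1 replicate 2 and 0.329 with M1 replicate 3. The other M1 arrays were also most like a PR array of their own slide. M1 replicate 2 was nearest to PR-338 replicate 2 (0.65) and M1 replicate 3 to PR-164 replicate 3 (0.471). M1 replicates 2 and 3 correlated at -0.188. Under the turned reading the correlation of M1 replicate 1 with M1 replicate 2 was 0.3, and that of M1 replicates 2 and 3 was 0.188. The a-cell median of M1 replicate 2 was then -3.78, opposite in sign to that of replicate 3. These arrays share a slide or a reference, and genes are not independent points. Whether M1 replicate 1 holds the same strain as the other M1 arrays was not tested. Results are given with it, and where they rest on it also without it.

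With all arrays, no gene passed the limma test of M1 minus the mean of the PR mutants at a Benjamini-Hochberg adjusted p of 0.05, that is 0 of 4073 in either direction (0%). Without adjustment 171 genes were higher (4.2%) and 232 lower (5.7%) at p under 0.05, or 9.89% of the genes together. By the turned reading 197 were higher (4.84%) and 254 lower (6.24%). The smallest adjusted p was 0.172, for FAL1, and the next was 0.34. Each comparison with a single PR mutant also called 0 genes. At an unadjusted p under 0.05, M1 had 259 genes higher and 325 lower than PR-438 (6.36% and 7.98%), 63 and 142 against PR-338 (1.55% and 3.49%), and 85 in each direction against PR-164 (2.09% each). Between the PR mutants themselves limma called 0 genes as well. PR-438 had 85 genes higher (2.09%) and 71 lower (1.74%) than the mean of the other PR mutants at that p, PR-338 had 117 (2.87%) and 29 (0.712%), and PR-164 had 22 (0.54%) and 56 (1.37%). The differences of single genes below are therefore given as values, with the unadjusted limma p where one is printed.

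A second reading used no model. In 111 genes (2.74% of 4048) M1 lay above all 3 PR arrays on every slide, and in 192 genes (4.74%) it lay below them all. The same rule placed PR-438 above the other 3 strains in 77 genes (1.9%) and below them in 86 (2.12%). For PR-338 it gave 38 genes above (0.939%) and 19 below (0.469%), and for PR-164 it gave 20 above (0.494%) and 16 below (0.395%). Which strain was most often at the edge depended on slide 2. On the turned reading M1 lay above the PR arrays in 103 genes (2.54%) and below them in 109 (2.69%), while PR-438 lay above the other 3 strains in 168 (4.15%) and below them in 97 (2.4%), PR-338 in 61 (1.51%) and 100 (2.47%), and PR-164 in 61 (1.51%) and 55 (1.36%). As read, M1 had the most such genes, and in the opposite reading PR-438 had. Per-slide differences correlated little across genes. The Pearson correlation was -0.027 between slides 1 and 2, 0.264 between slides 1 and 3 and 0.205 between slides 2 and 3. The Spearman correlations were 0.003, 0.353 and 0.051 in the same order. Slides 1 and 3 share the dye orientation, and all slides share the DsRed reference.

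**Figure D1:**
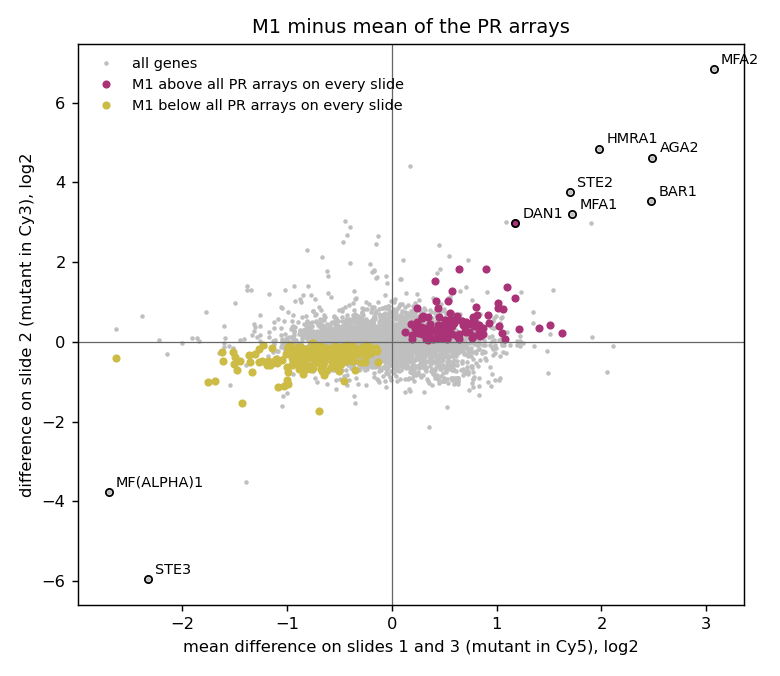
Difference between M1 and the mean of the 3 PR arrays for each gene, on slide 2 (vertical axis, mutant in Cy3) and averaged over slides 1 and 3 (horizontal axis, mutant in Cy5), in log2 units. Each grey point is a gene. Purple points are the 111 genes with M1 above all PR arrays on every slide, and yellow points the 192 with M1 below all of them. Circled genes include the mating genes, which lie farthest from 0 without meeting that rule.

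The largest differences were in genes of mating type. As slide 2 was read, all 7 measured a-cell-specific genes were higher in M1 at an unadjusted p under 0.05, against 4.2% of all genes, with a median difference of 2.39. None of the 7 lay above the PR arrays on every slide, because slide 1 differed from slides 2 and 3. The 4 alpha-cell-specific genes had a median of -2.10, and 2 of them were lower at that p, against 5.7% of all genes. In the turned reading, 0 of the 7 and 0 of the 4 had such a p (4.84% and 6.24% of all genes), and the medians were 0.079 and -0.0245. With one slide left out, the a-cell median was 3.73 without slide 1, 1.90 without slide 2 and 1.53 without slide 3, and the alpha-cell median was -3.79, -1.68 and -0.762. The labels give no mating type, and in these bulk cultures a larger share of a cells and more a-cell RNA per cell cannot be told apart.

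Among the pheromone genes of a cells, MFA2, an a-factor precursor gene, had log2 ratios on slides 1, 2 and 3 of 0.07, 6.76 and 6.26 in M1, against 0.81, -0.15 and 0.06 in PR-438, 0.59, -0.36 and -2.21 in PR-338 and 0.56, 0.30 and 0.75 in PR-164. M1 stood above every PR array on slides 2 and 3 and below all 3 on slide 1. Its mean difference was 4.33 ± 1.15 (± gives the SE of the limma fit here and below, n = 3 slides). MFA1, the other a-factor gene, had -0.23, 2.84 and 3.63 in M1, against 0.13, -0.17 and 0.21 in PR-438, -0.01, -0.40 and 0.11 in PR-338 and -0.34, -0.53 and -0.22 in PR-164. Its difference was 2.22 ± 0.55, again from slides 2 and 3. STE6, which encodes the transporter that exports a-factor, differed by -0.53, 2.05 and 1.99 on the 3 slides.

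Of the receptor and surface genes, STE2, which encodes the alpha-factor receptor, had log2 ratios of -0.25, 3.92 and 4.29 in M1, against 0.23, 0.08 and 0.47 in PR-438, 0.46, 0.28 and 0.39 in PR-338 and -0.52, 0.15 and 0.89 in PR-164. The M1 values of slides 2 and 3 lay more than 3 log2 units above each PR array of their slide, and that of slide 1 lay within the PR arrays. The difference was 2.39 ± 0.63. BAR1, the secreted protease that degrades alpha-factor, was measured at 0.06, 3.78 and 4.10 in M1, against -0.30, 0.36 and -0.73 in PR-438, 0.06, 0.06 and 0.04 in PR-338 and -0.84, 0.33 and -0.61 in PR-164. It had the smallest unadjusted p of the group, 0.00066, with a difference of 2.83 ± 0.59. AGA2, the adhesion subunit of a-agglutinin, differed by -2.14, 4.62 and 7.10 on the 3 slides and ASG7, an a-specific regulator of pheromone signalling, by -0.62, 2.98 and 4.42. Both were lower than the PR mean on slide 1 and higher on the others.

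Genes of alpha cells ran the other way on slides 2 and 3. STE3, the receptor for a-factor, had log2 ratios of 0.56, -6.13 and -5.71 in M1, against -0.51, -0.23 and -0.70 in PR-438, -0.11, -0.08 and -0.05 in PR-338 and 0.32, -0.21 and -0.39 in PR-164. M1 was the lowest strain on slides 2 and 3 by over 5 log2 units and the highest on slide 1, for a difference of -3.54 ± 0.95. MF(ALPHA)1, the main alpha-factor precursor, had 2.21, -6.25 and -6.19 in M1, against 1.31, -1.99 and -0.33 in PR-438, 0.91, -2.20 and -0.90 in PR-338 and 2.18, -3.31 and 1.13 in PR-164. Its PR values themselves spread from -3.31 to 2.18 across slides. MF(ALPHA)2, the minor alpha-factor gene, differed by 1.80, -1.36 and -3.87 and was low on slides 2 and 3 in the PR mutants too. SAG1, which encodes alpha-agglutinin, differed by 0.11, -0.15 and 0.31, with a mean of 0.09 ± 0.24.

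At the mating-type loci, HMRA1, the a1 copy of the silent cassette HMR, had -0.997, 5.35 and 4.16 in M1, against -0.15, 0.14 and 0.70 in PR-438, 0.42, 0.22 and -0.81 in PR-338 and -1.49, 1.14 and -1.08 in PR-164, and differed by 2.94 ± 0.89. The alpha1 copies were lower in M1 on slides 2 and 3, with differences of 0.26, -1.01 and -1.70 on the 3 slides for MATALPHA1 and 0.09, -1.08 and -3.17 for HMLALPHA1. The alpha2 and a2 copies HMLALPHA2, MATALPHA2 and HMRA2 had mean differences of -0.59, -0.55 and -0.60. MAT, HML and HMR share sequence, so their probes cannot assign signal to a single locus and these values are uncertain as to the copy.

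**Figure D2:**
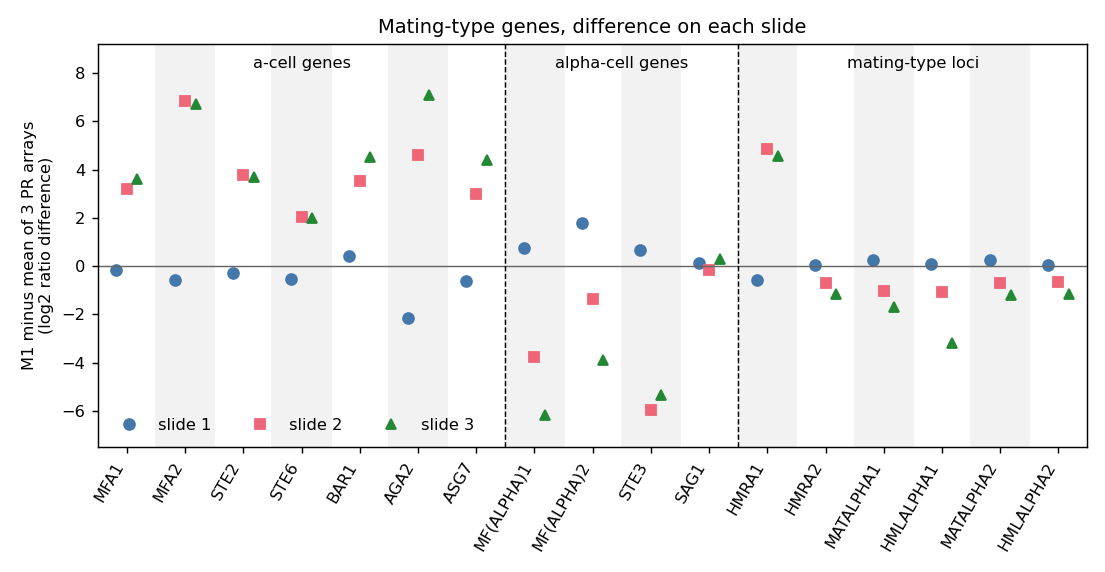
Difference between M1 and the mean of the 3 PR arrays (vertical axis, log2) for 7 a-cell genes, 4 alpha-cell genes and 6 genes of the mating-type loci, with 1 point per slide. On slides 2 and 3 the a-cell genes lie between 1.99 and 7.10, while on slide 1 they lie between -2.14 and 0.42.

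Leaving out M1 replicate 1 changed which genes passed. That array was singled out by these same mating genes, so the adjusted p-values that follow describe the arrays left and are no independent support. Without it 10 genes were called by limma after Benjamini-Hochberg adjustment, 8 higher and 2 lower, and 8 of the 10 were a-cell- or alpha-cell-specific. MFA2 was higher in M1 by 6.78, BAR1 by 4.03, STE2 by 3.73, MFA1 by 3.40 and STE6 by 2.02, with adjusted p-values between 5.4e-05 and 0.018. AGA2 was higher by 5.86 (adjusted p = 0.034) and HMRA1 by 4.70 (adjusted p = 0.0080). STE3 was lower, at -5.64 (adjusted p = 1.1e-05), and MF(ALPHA)1 at -4.96 (adjusted p = 0.018). The remaining gene, SEO1, a permease-family gene named here after its values were seen, was higher by 2.53 (adjusted p = 0.040). With slide 1 left out whole, 6 genes were called, BAR1, HMRA1, MFA1, MFA2, STE2 and STE3. The opposite reading of slide 2 turned the sign of MFA2, STE2, STE6, STE3 and HMRA1 in the mean over 3 slides.

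Few of the genes that both haploid cell types use differed. Of the 15 haploid-specific genes measured, 1 was higher at an unadjusted p under 0.05 (6.67%, beside 4.2% of all genes) and 0 were lower, with a median of 0.03. That gene was FAR1, the cyclin-dependent kinase inhibitor of the pheromone arrest, with differences of 0.30, 0.61 and 0.27 on the 3 slides, and it lay above the PR arrays on each. Of the 20 pheromone-induced genes, 1 was higher and 1 lower (5% each, beside 4.2% and 5.7% of all genes), with a median of -0.02. The higher one was GIC2, an effector of the polarity GTPase Cdc42, at 0.81 ± 0.23, and the lower one PRR2, a protein kinase gene, at -1.12 ± 0.42. The genes of the MAP kinase cascade and pheromone maturation had a median of 0.04 over 17 members.

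Genes for making ribosomes had mostly positive differences in M1. Of 116 measured ribosome biogenesis genes, 110 had a positive difference, beside 46.3% of all genes. At an unadjusted p under 0.05, 38 were higher and 0 lower, against 4.2% and 5.7% of all genes, and the adjusted test passed 0. The median difference was 0.40, beside -0.02 over all genes. In 17 of the 116 (14.7%, beside 2.74% of all genes) M1 lay above every PR array on each slide, and in 0 below. Under the turned reading, M1 lay outside the PR arrays in 0 of the 116 in either direction (all genes: 2.54% above, 2.69% below). Then 73 had a positive difference, beside 43.4% of all genes, and 1 was higher at that p (0.862%, beside 4.84% of all genes). The members' median log2 ratio on slides 1, 2 and 3 was 0.01, 0.58 and 0.22 in M1, against -0.67, -0.11 and -0.24 in PR-438, -0.04, 0.38 and -0.07 in PR-338 and 0.09, -0.06 and -0.52 in PR-164. M1 had the highest median on slides 2 and 3, and on slide 1 PR-164 was a little above it. The median difference was 0.61 against PR-438, 0.16 against PR-338 and 0.44 against PR-164, so PR-338 was the nearest strain. The list's median was 0.474 without M1 replicate 1 and 0.0965 in the turned reading.

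By role, the factors of the large subunit included NOP15, an assembly factor of the early large-subunit precursor, with log2 ratios of 0.42, 0.79 and 0.41 in M1, against -0.80, -0.39 and -0.48 in PR-438, 0.14, 0.39 and -0.33 in PR-338 and -0.03, -0.23 and -0.82 in PR-164. M1 was the highest strain on each slide, and the mean difference was 0.82 ± 0.19. NUG1, a GTPase needed for export of the large subunit, had 0.91, 0.75 and 0.10 in M1, against -1.05, -0.23 and -0.62 in PR-438, -0.08, 0.42 and -0.02 in PR-338 and 0.01, 0.02 and -0.67 in PR-164. M1 again lay above all PR arrays, with a difference of 0.84 ± 0.21. Other large-subunit factors above the PR arrays on every slide, named after their values were seen, were RPF1 at 0.69, RPF2 at 0.64 and RLP24 at 0.64, and PWP1, which acts in ribosomal RNA processing, stood at 0.71.

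FAL1, an RNA helicase of small-subunit maturation that was not among the listed members, had the smallest p of all genes. Its log2 ratios were 0.34, 1.46 and 0.92 in M1, against -1.20, -0.35 and -0.62 in PR-438, -0.13, 0.30 and 0.28 in PR-338 and -0.62, 0.29 and -0.50 in PR-164. M1 exceeded every PR array on each slide, and the mean difference was 1.19 ± 0.17. Against single strains it was 1.63 ± 0.21 above PR-438, 0.75 ± 0.21 above PR-338 and 1.18 ± 0.21 above PR-164. It passed the test (adjusted p = 0.043) under quantile normalization, at a difference of 1.33. TRM82, the non-catalytic subunit of a transfer RNA methyltransferase, lay above all PR arrays as well and differed by 0.78, 0.63 and 0.76 on the 3 slides.

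Subunits of RNA polymerases I and III, which transcribe ribosomal and transfer RNA genes, had a median difference of 0.34. Of 24 genes 22 had a positive difference, beside 46.3% of all genes. At an unadjusted p under 0.05, 7 were higher (4.2% of all genes) and 0 lower. By the turned reading the median was 0.153 and 1 was higher (4.84% of all genes). Their median log2 ratio was 0.21, 0.34 and 0.32 in M1, against -0.62, -0.15 and -0.23 in PR-438, 0.03, 0.20 and -0.18 in PR-338 and 0.28, -0.16 and -0.16 in PR-164. RPA34, a polymerase I subunit, was measured at 0.50, 0.50 and -0.02 in M1, against -0.96, -0.11 and -0.66 in PR-438, -0.17, 0.49 and -0.51 in PR-338 and 0.14, -0.24 and -0.77 in PR-164, with M1 highest on each slide and a difference of 0.64 ± 0.22. RPA43, another polymerase I subunit, differed by 0.40, 0.34 and 1.17.

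Cytosolic ribosomal protein genes depended on how slide 2 was read. Their median difference was 0.54, -0.45 and 0.60 on slides 1, 2 and 3, and 107 of 136 had a positive mean, with 8 higher (5.88%, beside 4.2% of all genes) and 0 lower at an unadjusted p under 0.05, and 46.3% of all genes had a positive mean. The median was 0.22, and M1 lay above all PR arrays on each slide in 2 (1.47%, beside 2.74% of all genes). On the turned reading the 3 slides had one sign, the median was 0.494 and 135 of the 136 had a positive mean, beside 43.4% of all genes. In that reading 58 were higher at that p (42.6%, beside 4.84% of all genes). M1 then lay above all PR arrays in 25 of the 136, beside 2.54% of all genes. The members' median log2 ratio was 1.43, -2.72 and 0.17 in M1, against 1.04, -1.96 and -0.33 in PR-438, 0.67, -1.85 and -0.52 in PR-338 and 1.11, -2.65 and -0.56 in PR-164. Within a slide the 4 strains lay closer together than slides 1 and 2 did. The opposite reading gives slide 2 the sign of slide 1, but on slide 3 the PR medians were negative and that of M1 positive. Which reading holds was not tested. RPL23A, a large-subunit protein with a near-identical paralog, differed by 0.58, 0.49 and 0.97 and RPS21A, a small-subunit protein with a similar paralog, by 0.81, 0.34 and 1.13. The paralogs' signals cannot be separated here. Of 40 translation factors 2 were higher and 0 lower, with a median of 0.18, a share of 5% beside 4.2% of all genes. The 2 were SUP45, the release factor, at 0.70 ± 0.27, and GCN3, a subunit of the guanine exchange factor for translation initiation, at 0.63 ± 0.28. By the turned reading 7 of the 40 were higher (17.5%, beside 4.84% of all genes) and 0 lower, with a median of 0.194.

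**Figure D3:**
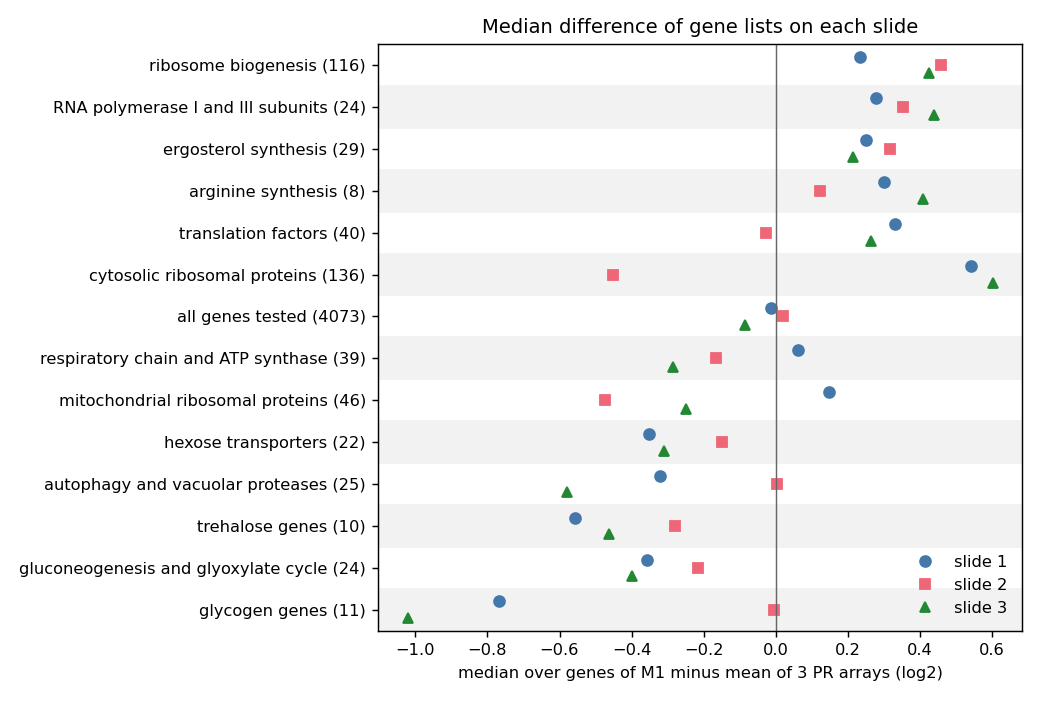
Median over a list's genes of M1 minus the mean of the 3 PR arrays (horizontal axis, log2), with 1 point per slide and the number of measured genes in parentheses. Ribosome biogenesis lies at 0.23, 0.46 and 0.42 on slides 1, 2 and 3 and glycogen genes at -0.77, -0.01 and -1.02, while the median of all genes stays near 0. The points of slide 2 change sign if its ratios are read the other way.

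Mitochondrial ribosomal proteins had mostly negative differences. Of 46 genes 43 had a negative difference, beside 53.7% of all genes, and the median was -0.19. At an unadjusted p under 0.05, 6 were lower and 0 higher (beside 5.7% and 4.2% of all genes). In 7 of the 46 (15.2%, beside 4.74% of all genes) M1 lay below every PR array on each slide. The list's median difference was 0.15, -0.47 and -0.25 on slides 1, 2 and 3, so it was positive on slide 1. In the turned reading of slide 2 the median was 0.099 and 28 of the 46 had a positive difference, beside 43.4% of all genes. M1 then lay below the PR arrays in 0 and above them in 1, beside 2.69% and 2.54% of all genes. The median was -0.365 without slide 1, -0.0594 without slide 2 and -0.167 without slide 3. MRPL4, of the large subunit, had log2 ratios of -1.51, -0.92 and -0.49 in M1, against 0.09, -0.15 and 0.87 in PR-438, -0.52, -0.04 and 0.15 in PR-338 and -0.74, 0.32 and 0.16 in PR-164. M1 was lowest on each slide, with a difference of -0.99 ± 0.21. MRP4, of the small subunit, differed by -0.74, -0.51 and -0.97.

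Among mitochondrial genes outside the ribosome, the 39 respiratory chain and ATP synthase genes had a median of -0.07, with 2 lower (5.13%, beside 5.7% of all genes) and 0 higher at an unadjusted p under 0.05. The other genes here were named singly by their own p or difference. SLS1, an inner-membrane protein that couples mitochondrial transcription to translation, had -2.40, -0.86 and -1.09 in M1, against 0.45, 0.03 and 0.47 in PR-438, -0.51, 0.09 and 0.22 in PR-338 and -0.97, 0.28 and 0.39 in PR-164. M1 lay below all PR arrays on each slide and the difference was -1.50 ± 0.27, the smallest unadjusted p among lower genes (0.00022). CYM1, a protease of the mitochondrial intermembrane space, differed by -0.81, -0.67 and -0.83. CYT1, cytochrome c1 of the respiratory chain, differed by -1.06, -0.67 and -0.49 and NDI1, the internal NADH dehydrogenase, by -0.02, -1.08 and -0.48. GUT2, the mitochondrial glycerol-3-phosphate dehydrogenase, had -1.68, -1.02 and -0.04 in M1, against 0.68, 0.48 and 0.86 in PR-438, -0.60, -0.30 and 0.84 in PR-338 and -1.26, 0.15 and 0.83 in PR-164 and a difference of -1.10 ± 0.27, with M1 lowest on every slide.

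Reserve carbohydrate genes were mostly low in M1 on slides 1 and 3. Of 11 glycogen genes 10 had a negative difference, beside 53.7% of all genes, with a median of -0.59. At an unadjusted p under 0.05, 4 were lower (5.7% of all genes). The median by slide was -0.77, -0.01 and -1.02, so slide 2 showed next to no difference. The list's median log2 ratio was -0.21, -0.29 and -0.42 in M1, against 1.03, 0.12 and 0.63 in PR-438, 0.24, -0.15 and 0.47 in PR-338 and -0.07, 0.14 and 0.44 in PR-164. GAC1, the subunit that directs a protein phosphatase to glycogen synthase, had -0.46, -0.81 and 0.27 in M1, against 1.40, 0.59 and 1.27 in PR-438, 0.61, -0.09 and 1.19 in PR-338 and -0.28, 0.39 and 1.41 in PR-164. Its differences of -1.03, -1.11 and -1.02 were alike on the 3 slides, and the mean was -1.05 ± 0.26. GLG1, the glycogenin primer of glycogen synthesis, differed by -0.93, -0.12 and -0.999 and GSY1, a glycogen synthase named after its values were seen, by -0.52, -0.14 and -1.11. Of 10 trehalose genes 9 had a negative difference (beside 53.7% of all genes), 1 was lower (beside 5.7%) and 0 were higher, with a median of -0.34. In the turned reading the medians were -0.498 for glycogen and -0.17 for trehalose genes. The lower one was TPS2, trehalose phosphate phosphatase, at -0.51, -0.68 and -0.85 on the 3 slides.

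Genes for using poor carbon sources had mostly negative differences. Of 24 genes of gluconeogenesis and the glyoxylate cycle 21 had a negative difference, beside 53.7% of all genes, and the median was -0.36. At an unadjusted p under 0.05, 4 were lower and 1 higher (5.7% and 4.2% of all genes). M1 lay below all PR arrays on each slide in 4 of the 22 measured on every array (18.2%, beside 4.74% of all genes). Under the turned reading it lay below them in 0, 1 gene was lower at that p (4.17%, beside 6.24% of all genes) and the median was -0.278. The list's median log2 ratio was -0.30, -0.12 and 0.25 in M1, against 0.26, 0.12 and 0.35 in PR-438, 0.08, -0.06 and 0.60 in PR-338 and 0.03, 0.22 and 0.69 in PR-164. JEN1, the lactate and pyruvate permease, had -0.10, -1.29 and 0.61 in M1, against 0.50, 0.74 and 1.19 in PR-438, 0.23, 0.22 and 1.73 in PR-338 and 0.04, 0.42 and 2.06 in PR-164. M1 was lowest on every slide, by -0.35, -1.74 and -1.05 from the PR mean, but turning slide 2 round gave a mean difference of 0.12. YAT1, a carnitine acetyltransferase, differed by -1.20, -0.64 and -0.37. ICL1, isocitrate lyase, and ACS1, an acetyl-CoA synthetase, both below all PR arrays and named after their values were seen, had mean differences of -0.46 and -0.77. The higher gene, named after its values were seen, was CIT2, the peroxisomal citrate synthase, at 0.24, 2.15 and 0.84.

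SNF1, the kinase that yeast needs to grow on carbon sources other than glucose, had log2 ratios of -0.97, -0.80 and -0.15 in M1, against 0.51, -0.06 and 0.34 in PR-438, 0.12, -0.18 and 0.76 in PR-338 and -0.21, -0.13 and 0.44 in PR-164 and a difference of -0.82 ± 0.19. M1 was lowest on each slide. Of 22 hexose transporter genes and regulators 15 had a negative difference (53.7% of all genes did) and 6 were lower (27.3%, beside 5.7% of all genes), with 0 higher, at an unadjusted p under 0.05, and the median was -0.26. By the turned reading 2 were lower and 2 higher (9.09% each, beside 6.24% and 4.84% of all genes), with a median of -0.138. HXT10, a transporter of the family, had -0.62, -0.55 and -0.85 in M1, against 0.43, 0.01 and 0.46 in PR-438, -0.02, -0.04 and -0.15 in PR-338 and -0.32, 0.09 and -0.29 in PR-164 and a difference of -0.69 ± 0.18. HXT15, which has near-identical relatives whose signal may be shared, differed by -1.83, -0.04 and -2.17, from slides 1 and 3. RGT1, the repressor of hexose transporter genes, lay below all PR arrays at -1.78, -0.55 and -1.24, although PR-438 replicate 1 alone stood at 4.07. CSR2, an adaptor for ubiquitination of membrane transporters, had -1.63, -1.25 and -0.57 in M1, against 1.56, 0.57 and 0.77 in PR-438, -0.40, -0.32 and 0.68 in PR-338 and -1.43, 0.64 and 0.81 in PR-164 and a difference of -1.47 ± 0.41. XKS1, xylulokinase of xylose use, had -0.43, -0.66 and -0.18 in M1, against 0.42, 0.05 and 0.37 in PR-438, 0.24, -0.30 and 0.24 in PR-338 and 0.23, 0.09 and 0.68 in PR-164, with M1 lowest on each slide and a difference of -0.65 ± 0.16.

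**Figure D4:**
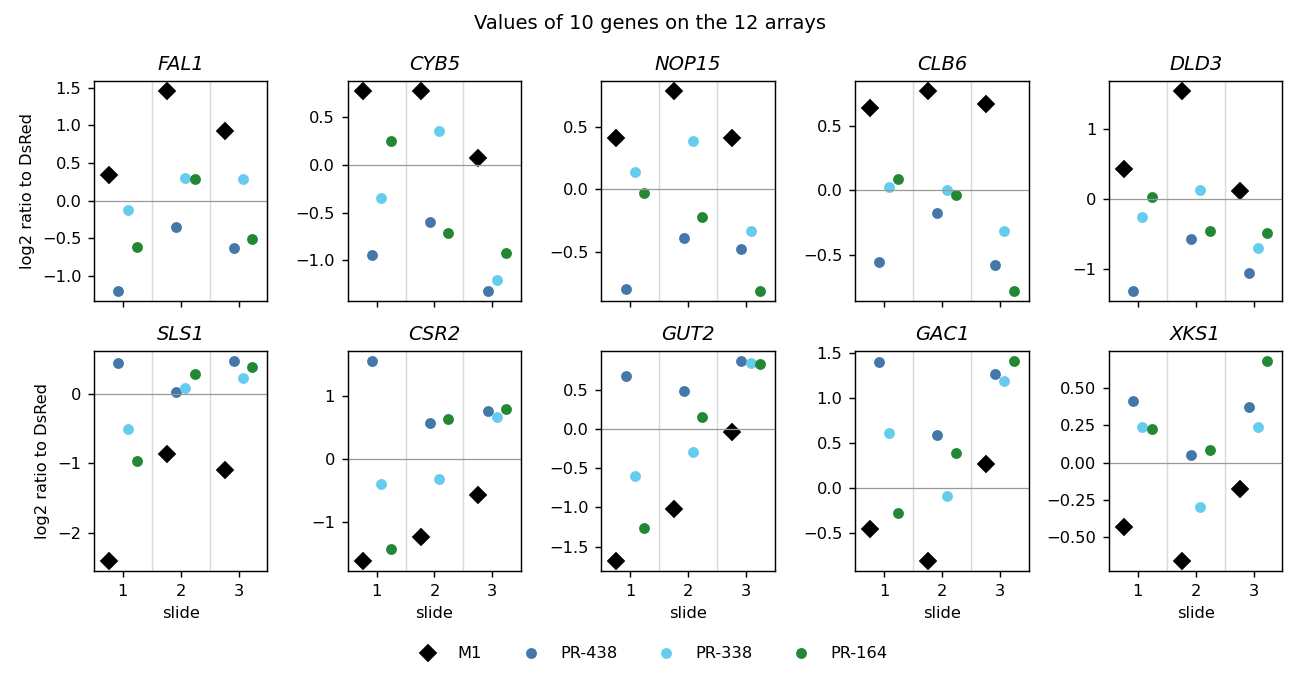
Log2 ratio to the DsRed reference (vertical axes) on slides 1, 2 and 3 (horizontal axes) for 10 genes, with 1 point per array, diamonds for M1 and circles for PR-438, PR-338 and PR-164. In these genes, chosen by rank of p or of difference, M1 lies outside the 3 PR arrays on every slide, above them in FAL1, CYB5, NOP15, CLB6 and DLD3 and below them in SLS1, CSR2, GUT2, GAC1 and XKS1. If slide 2 is read the other way its points change sign, and M1 then lies on the other side of the PR arrays there.

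On the turned reading the mean differences of the 10 genes plotted by array shrank, to 0.27 in FAL1, 0.42 in CYB5, 0.24 in NOP15, 0.40 in CLB6 and -0.013 in DLD3, and to -0.84 in SLS1, -0.44 in CSR2, -0.35 in GUT2, -0.32 in GAC1 and -0.24 in XKS1. Sterol genes also had mostly positive differences. Of 29 ergosterol synthesis genes 24 had a positive difference, beside 46.3% of all genes. At an unadjusted p under 0.05, 6 were higher and 0 lower (4.2% and 5.7% of all genes). M1 lay above all PR arrays in 3 (10.3%, beside 2.74% of all genes). The median difference was 0.22, and its value by slide was 0.25, 0.32 and 0.21. In the turned reading the median was -0.0016. M1 then lay above the PR arrays in 0 genes and below them in 2, beside 2.54% and 2.69% of all genes. CYB5, cytochrome b5, an electron donor in sterol and lipid synthesis, had 0.77, 0.78 and 0.08 in M1, against -0.95, -0.60 and -1.32 in PR-438, -0.34, 0.36 and -1.20 in PR-338 and 0.25, -0.71 and -0.92 in PR-164. Its differences were 1.12, 1.09 and 1.23 on the 3 slides, for a mean of 1.15 ± 0.25. CYB5 and NOP15 are neighbouring genes in the R64 catalogue. ERG1, squalene epoxidase, had 0.25, 1.08 and 0.45 in M1, against -0.40, -0.34 and -0.66 in PR-438, -0.20, 0.31 and -0.17 in PR-338 and 0.03, -0.53 and 0.06 in PR-164 and a difference of 0.80 ± 0.22, with M1 highest on each slide. ERG11, lanosterol demethylase, named after its values were seen, differed by 0.43, 1.01 and 0.42. Both turned sign, to -0.040 and -0.056, in the turned reading.

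Wall mannoproteins of cold and low oxygen had a negative median of -0.17 over 21 genes, and 2 members named by their p or difference lay higher in M1. TIR3 had -0.17, 1.41 and -0.19 in M1, against -0.47, -0.64 and -1.30 in PR-438, -0.43, 0.07 and -0.68 in PR-338 and -0.85, -0.68 and -1.19 in PR-164 and DAN1 had -0.14, 2.93 and -0.27 in M1, against -0.85, -0.30 and -1.04 in PR-438, -0.35, 0.89 and -1.33 in PR-338 and -0.80, -0.73 and -3.94 in PR-164. M1 was the highest strain on every slide in both, with mean differences of 1.03 ± 0.24 and 1.78 ± 0.49, and both were largest on slide 2 and turned sign when it was read the other way. Flocculin genes, which make cells stick together, were lower in 3 of 13 by the rule of every slide (23.1%, beside 4.74% of all genes). These were FLO1 at -1.75, -0.16 and -0.55, FLO9 at -1.03, -0.37 and -0.73 and FLO5, named after its values were seen, at -0.40, -0.44 and -0.46. The 3 genes share repeats and much sequence, so they do not count as independent measurements. Over the 13 flocculin and invasive growth genes the median difference was -0.67, -0.01 and 0.10 on slides 1, 2 and 3. Of these 5 had a positive difference, beside 46.3% of all genes. In the turned reading M1 lay below the PR arrays in 0 of the 13, beside 2.69% of all genes.

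Of the 30 listed cell cycle genes 2 were higher and 2 lower at an unadjusted p under 0.05 (6.67% each, beside 4.2% and 5.7% of all genes), with a median of 0.04. Under the turned reading 0 were higher and 6 lower (20%, beside 6.24% of all genes), with a median of -0.157. CLB6, an S-phase cyclin, had 0.64, 0.78 and 0.68 in M1, against -0.56, -0.17 and -0.58 in PR-438, 0.03, 0.01 and -0.32 in PR-338 and 0.09, -0.04 and -0.78 in PR-164. M1 exceeded every PR array, by 0.79, 0.84 and 1.24 relative to the mean, for a difference of 0.96 ± 0.18. CLB5, the other S-phase cyclin, differed by 0.40, 0.55 and 0.70, and CDC45, a subunit of the replicative helicase, by 0.97, 0.42 and 2.04, both with M1 above all PR arrays on each slide. WHI5, the repressor that holds back entry into the cycle, lay below all PR arrays at -1.91, -0.49 and -1.33. CDC45 and WHI5 were named for their difference outside the PR arrays. Of the 30 listed genes 18 had a positive and 12 a negative difference, from -1.37 to 0.96, beside 46.3% and 53.7% of all genes.

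Among the genes of smallest p in the lower direction, LAS17, the yeast WASP that activates actin branching at sites of endocytosis, had -1.67, -0.44 and -1.10 in M1, against 0.42, -0.07 and 0.57 in PR-438, -0.22, -0.10 and -0.57 in PR-338 and -0.15, 0.36 and -0.22 in PR-164 and a difference of -1.07 ± 0.26. MYO5, a type I myosin of endocytic actin patches, had -1.40, -0.59 and -0.33 in M1, against 0.27, 0.10 and 0.61 in PR-438, -0.21, -0.05 and 0.73 in PR-338 and -0.68, 0.41 and 0.08 in PR-164 and a difference of -0.91 ± 0.22. M1 was lowest on every slide in both. The other type I myosin, MYO3, differed by -1.75, -0.28 and -1.55, the patch scaffold PAN1 by -1.86, -0.70 and -1.09, and YSC84, an actin-binding patch protein, by -0.95, -0.41 and -1.16. Of the 27 genes listed for tubulin and the actin cytoskeleton, which hold MYO3 and MYO5 but not the other 3, 2 were lower (7.41%, beside 5.7% of all genes) and 1 higher (3.7%, beside 4.2%) at an unadjusted p under 0.05 and the median was -0.01.

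Autophagy genes and vacuolar proteases had a negative difference in 24 of 25 members, beside 53.7% of all genes, and a median of -0.34. At an unadjusted p under 0.05, 4 were lower and 0 higher (5.7% and 4.2% of all genes). By slide the median was -0.32, 0.00 and -0.58, so slide 2 showed next to no difference, and in the turned reading the list's median was -0.331. ATG2, a lipid transfer protein of the growing autophagosome, differed by -0.67, -0.64 and -1.13 and ATG4, the protease that processes Atg8, by -1.40, 0.12 and -0.95. Stress genes had a median of -0.22 over 21 members, with 1 lower (4.76%, beside 5.7% of all genes) and 0 higher. By slide the median was -0.39, 0.36 and -1.09, so slide 2 went the other way as read. In the opposite reading the median was -0.614, with 7 lower (33.3%, beside 6.24% of all genes) and 1 higher. The lower one was XBP1, a stress-induced repressor of transcription, with -1.43, -1.40 and 0.21 in M1, against 1.78, 0.06 and 1.82 in PR-438, 1.43, -0.87 and 0.97 in PR-338 and -1.06, -0.46 and 1.57 in PR-164. M1 lay below all PR arrays on every slide, and its difference was -1.45 ± 0.44. HSP26, a small heat shock protein, differed by -0.94, 0.01 and -2.75 with a SE of 0.60. SPG1, needed for survival in stationary phase, differed by -1.92, -0.40 and -3.35, and RCK1, a protein kinase of the oxidative stress response, by -2.01, -0.25 and -1.02.

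In metabolism, DLD3, a cytosolic enzyme of the D-lactate dehydrogenase family, had 0.43, 1.54 and 0.11 in M1, against -1.31, -0.57 and -1.06 in PR-438, -0.26, 0.14 and -0.70 in PR-338 and 0.03, -0.45 and -0.48 in PR-164. M1 was highest on each slide and the difference was 1.21 ± 0.25, which became -0.013 in the turned reading. AAH1, adenine deaminase of purine salvage, had 0.06, 1.04 and 0.66 in M1, against -0.86, -0.20 and -0.93 in PR-438, -0.42, 0.59 and -0.53 in PR-338 and -0.06, -0.23 and -1.14 in PR-164, a difference of 1.004 ± 0.24. Of 36 sulfate and methionine genes 4 were higher (11.1%, beside 4.2% of all genes) and 0 lower, with a median of 0.22 that was 0.59 on slide 2, and -0.02 and -0.03 on slides 1 and 3. By the turned reading 8 were lower (22.2%, beside 6.24% of all genes) and 2 higher, with a median of -0.289. MET32, a regulator of sulfur genes, differed by 0.32, 1.84 and 0.60 and MET16, an enzyme of sulfate reduction, by 0.58, 2.43 and 0.32. All 8 arginine synthesis genes had a positive difference, beside 46.3% of all genes, with a median of 0.30. None had an unadjusted limma p under 0.05. CAR2, which breaks ornithine down, was below all PR arrays at -2.07, -0.47 and -0.83.

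Of 31 genes of iron and copper supply 4 were lower (12.9%, beside 5.7% of all genes) and 0 higher at an unadjusted p under 0.05, with a median of -0.22. On the turned reading 2 were lower and 2 higher (6.45% each, beside 6.24% and 4.84% of all genes), with a median of -0.0509. CTR1, the high-affinity copper transporter, had -0.23, -0.23 and -0.86 in M1, against 0.53, 0.50 and 0.28 in PR-438, 0.17, -0.05 and 0.17 in PR-338 and 0.10, 0.53 and 0.46 in PR-164 and a difference of -0.74 ± 0.19, with M1 lowest on each slide. ARN2, a siderophore transporter, differed by -0.06, -1.05 and -1.18. CCC2, the copper pump that loads the iron uptake oxidase, named after its values were seen, differed by -0.60, -0.97 and -0.32.

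At the right end of chromosome III the PR mutants differed among themselves, so their mean describes none of them. AAD3, a member of the aryl-alcohol dehydrogenase family, had log2 ratios of -0.91, 0.01 and 0.13 in M1, against -0.22, -0.50 and -0.09 in PR-438, -2.46, -1.71 and -3.48 in PR-338 and -2.19, -1.54 and -1.28 in PR-164. M1 and PR-438 overlapped, with a difference of 0.01 ± 0.42, while M1 lay above PR-338 by 2.29 ± 0.42 and above PR-164 by 1.41 ± 0.42. Its neighbour RDS1, a zinc cluster regulator, gave -0.17 ± 0.29 against PR-438, 1.46 ± 0.29 against PR-338 and 1.28 ± 0.29 against PR-164. The adjusted p was above 0.05 in each of these comparisons. AAD15, a relative of AAD3 on another chromosome with similar sequence, differed from the PR mean by 1.29, 1.24 and 0.52 on the 3 slides.

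Among the remaining genes of widest difference outside the PR range on every slide, APE2, RLI1, SSN2 and TOP3 rested mostly on 1 slide. APE2, an aminopeptidase, differed by 0.37, 0.22 and 2.88 on the 3 slides, RLI1, an ATPase of ribosome recycling, by 0.39, 0.35 and 2.42, and PUS4, a pseudouridine synthase of transfer RNA, by 0.20, 0.83 and 1.92. RSR1, the GTPase of bud site choice, differed by 0.88, 0.33 and 1.55. Slide 3 gave the largest value in all 4. On the lower side SSN2, a subunit of the Mediator kinase module, differed by -0.51, -0.26 and -2.74, TOP3, DNA topoisomerase III, by -2.46, -0.37 and -0.54, and SWH1, an oxysterol-binding protein, by -1.41, -0.75 and -1.27. ECM13, whose role is not given here, had log2 ratios of -0.29, -0.39 and -0.06 in M1, against 0.24, 0.74 and 1.23 in PR-438, 0.24, 0.28 and 1.41 in PR-338 and -0.03, 0.96 and 1.82 in PR-164, with M1 lowest on each slide and a difference of -1.01 ± 0.24.

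YPT32, a Rab GTPase of the secretory pathway, differed by 1.19, 0.40 and 0.38 on the 3 slides with M1 above all PR arrays, while the 11 Rab genes had a median of 0.03. ARO9 and ARO10, an aminotransferase and a decarboxylase of aromatic amino acid breakdown, differed by -1.26, 0.06 and -0.84 and by -2.22, 0.09 and -1.51, negative on slides 1 and 3 and near 0 on slide 2. The glycolysis list had a median of 0.09 over 22 genes, and 0.498 with 9 higher (40.9%, beside 4.84% of all genes) in the turned reading. As read 1 was lower (4.55%, beside 5.7% of all genes), PYK2, the minor pyruvate kinase, at -0.99, -0.29 and -0.89. At an unadjusted limma p under 0.05, 5.7% of all genes were lower and 4.2% higher. At that p 1 of 13 pentose phosphate genes was lower (7.69%) and 0 higher, and 0 of 33 proteasome genes differed in either direction. Of 28 listed oxidative stress genes 27 were measured, with 1 lower (3.7%) and 0 higher. By the turned reading 5 oxidative stress genes were higher (18.5%) and 4 lower (14.8%), beside 4.84% and 6.24% of all genes. Of the pentose phosphate genes 2 were then lower (15.4%) and 0 higher. URA3, a common selection marker, differed by -0.89, -0.16 and -1.07, and the 8 marker genes had a median of -0.07.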

How the data were processed

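RNA of 4 adapted strains was measured against a DsRed reference on 2-colour arrays, 12 arrays on 3 slides. For every array the deposited table gives a value at each of 15744 probes, made by the authors from GenePix result files per the labels. The deposited values are linear ratios of the background-subtracted channels, read as such from the values, since up to 6.39% of spots were at or below 0 and most values are quotients of whole numbers. Further steps by the authors are not stated in the sources used here. Of the probes, 8152 carried 1 gene symbol and 7592 none (not analysed here). The symbols were matched to the RefSeq R64 gene catalogue, 129 of them through a synonym, and 8 were kept as in the table. Spots at or below 0 were left out, log2 was taken, the median of the named probes was subtracted per array (it lay at log2 values of -1.62 to 2.28 before), and probes were averaged per gene. No filter on brightness was applied.

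limma 3.58.1 in R 4.3.3 (lmFit, eBayes, with the data.table package at version 1.17.8) fitted 1 coefficient per strain with the slide as a block over the 12 arrays, with Benjamini-Hochberg adjustment over 4073 genes and a threshold of 0.05. The labels say that a replicate number marks a shared slide, so the numbers pair the arrays. After the group means were removed, arrays of 1 slide correlated at a median of 0.623 (18 pairs of different strains, 0.074 to 0.88). Arrays of different slides correlated at -0.271 (36 pairs, -0.72 to 0.418). Removing a strain's mean over its 3 arrays pushes correlations between slides below 0, so the latter value is no support for the pairing. Nothing in the labels says how the replicate cultures were grown, so p-values measure only the spread between these arrays. The fit was tested on simulated data. Plots were drawn with matplotlib 3.10.9, and tables made with numpy 2.4.6 and pandas 2.3.3 under Python 3.11.15.

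Named genes were the 10 of smallest p in each direction, all measured mating-type genes, the 15 of largest difference in each direction among those with M1 outside the PR arrays on every slide, and the 2 of smallest p in each of 50 lists. Others are marked in the text as chosen after their values were seen. The members, lists and tests were chosen with earlier results of these data known. The alternatives tried were no slide block, the per-slide differences alone, all 24 arrays, the opposite direction of slide 2, leaving out slides, M1 replicate 1 or a PR mutant, and other normalizations, filters and weights. Background correction could not be varied, since only ratios were used. No sequences or coordinates are printed.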

Additional observations from a re-analysis of the deposited data

How the results depend on the processing

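The tests were repeated under 20 other settings. With no replicate block the limma test called 0 of 4073 genes, with 325 in place of 403 at an unadjusted p under 0.05, and changed no call, nor did the 3 differences alone (369), all 24 arrays (430) or array weights (391). Leaving out a slide or M1 replicate 1 gave 0 to 10 called genes for M1 minus the PR mean, 0 to 5 against PR-438, 0 to 6 against PR-338 and 0 to 5 against PR-164. The calls came without replicate 1 (slide 1), which left 6, 5, 6 and 5, and without M1 replicate 1 alone, which left 10. Quantile normalization called 1 gene. In the same leave-one-out settings 301 to 372 genes lay above and 384 to 533 below the PR arrays on every slide left, as fewer slides make that easier to meet, and the gluconeogenesis median ran from -0.509 to -0.263. These counts under other settings were added after seeing the data. Without PR-438 300 genes lay below and the polymerase I and III median was 0.254, without PR-338 270 lay above and 325 below and the ribosome biogenesis median was 0.521, and without PR-164 219 lay above. The ergosterol median was 0.335 after quantile normalization and 0.279 with arrays scaled to 1 spread.

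With the opposite direction of slide 2, 109 genes lay below and 103 above. None can be among those of the reported direction, since turning a slide puts M1 on the other side of the PR arrays there. This reading was also run for every list and strain, added after seeing the data. The medians became 0.494 for cytosolic ribosomal proteins, 0.0965 for ribosome biogenesis, 0.153 for polymerases I and III, -0.138 for hexose transporters, and turned to 0.0992 for mitochondrial ribosomal proteins and -0.00162 for ergosterol. Of 105 genes followed, 18 turned sign. DLD3 came to -0.013, TIR3 to -0.18, MFA2 to -0.23, STE2 to -0.12, STE6 to -0.20, STE3 to 0.43, HMRA1 to -0.30, DAN1 to -0.21, FAR1 to -0.013, JEN1 to 0.12, NDI1 to 0.20, ERG1 to -0.040, ERG11 to -0.056, MET32 to -0.31, MET16 to -0.51, CCC2 to 0.019, SEO1 to -0.28 and CIT2 to -0.36. With a slide left out, MF(ALPHA)2 ran from -2.61 to 0.22 and SAG1 from -0.020 to 0.21, turning without replicate 3. MF(ALPHA)2 also turned to 0.11 after quantile normalization and to 0.22 without spots beyond 64-fold. The cause of these moves was not tested beyond what each setting leaves out.

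Precision is limited by 3 arrays per strain, by an unstated direction on slide 2, and by probe agreement as low as 0.29. A missed threshold does not show that strains are alike.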

Other observations

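Of 4048 genes M1 lay above the PR mean on every slide in 604 (14.9%) and below it in 694 (17.1%). By chromosome, the median of M1 minus the PR mean was lowest at -0.132 on chromosome VIII (187 genes) and -0.121 on chromosome I (66 genes) and highest at 0.008 on chromosome XV (362 genes). On chromosome VIII the median was -0.034, -0.146 and -0.177 on slides 1, 2 and 3.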
